A study of Homo sapiens with 8 samples.

Results

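The Hippo pathway was examined through 10 genes in CSCs sorted from MDA-MB-231 cells: the upstream regulator NF2, the kinases STK3, LATS1 and LATS2, the scaffold AMOTL2, the co-activators YAP1 and WWTR1 (TAZ), the DNA-binding partner TEAD1, and the targets CYR61 and CTGF. The genes were chosen by name. All 10 of the 10 listed names were found among the 12939 genes in the files, and no filter on low values was applied here, so every one was tested. CYR61 and CTGF are the older symbols of CCN1 and CCN2.

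MDA-MB-231 is a human breast cancer line of the triple-negative type. The cells carried GFP driven by the regulatory region of Oct4a and an RFP vector with scramble shRNA, CDH2 shRNA or Cx43 shRNA, and CSCs were those sorted as high for GFP and RFP. CDH2 is N-cadherin, an adhesion protein of cell contacts, and Cx43 (gene GJA1) forms gap junction channels. All groups shared the GFP reporter, the RFP selection and a night in culture after the sort, and the CDH2 shRNA line was 1 selected clone. The scramble and CDH2 shRNA groups had 3 libraries each and the Cx43 shRNA group 2. Nothing in the labels says that replicates came from separate cultures. The p-values below therefore measure only the spread left between these libraries once run effects and replicate number were taken out. That spread was pooled over the groups and drawn towards that of other genes. Neither CDH2 nor GJA1 was analysed here, which leaves the knockdown itself unchecked at the RNA level.

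The Hippo pathway is a kinase cascade that responds to cell contact, cell shape and tension. NF2 (merlin) and other membrane scaffolds help the kinases STK3 (MST2) and STK4 to activate LATS1 and LATS2, which phosphorylate YAP1 and WWTR1 and keep them out of the nucleus. When not phosphorylated, YAP1 and WWTR1 enter the nucleus, bind TEAD factors and switch on genes such as CYR61 and CTGF. AMOTL2 and LATS2 are themselves YAP/TAZ targets that restrain YAP1, so they stand on both sides of the pathway. RNA levels show neither phosphorylation nor location of the proteins.

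TEAD factors bind the core motif GGAATG. This motif or its reverse complement CATTCC was searched on both strands from 250 bases before to 50 bases after each gene start in the RefSeq promoters (GRCh38.p14), where 4928 of 35116 (14.0%) hold it and 45 (0.128%) hold it 3 or more times. The table has 7 of the 10 genes, not CYR61, TEAD1 or STK3. CTGF has 3 matches, AMOTL2 1 match before 1 of its 2 starts, YAP1 1 match, and LATS2 1 match within the 50 bases after its start. WWTR1, LATS1 and NF2 have none in this window. A match is a description of the letters only. The stretches around the matches upstream of a start are shown 5′ to 3′ on the strand of the gene, with the motif in capitals, because they are where the pathway's DNA-binding partner could read the genes examined here (CTGF at chr6:131951450-131951553, minus strand, AMOTL2 at chr3:134374499-134374528, minus strand, YAP1 at chr11:102110273-102110302, plus strand).
CTGF: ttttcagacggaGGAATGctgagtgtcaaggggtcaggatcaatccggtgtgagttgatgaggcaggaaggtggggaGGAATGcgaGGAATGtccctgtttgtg
AMOTL2: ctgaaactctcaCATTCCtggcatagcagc
YAP1: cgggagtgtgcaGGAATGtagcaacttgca

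Values are log2(CPM + 1), made by the authors, with the effect of the sequencing runs removed before deposit. No counts of reads are in the files, and sequencing depth is therefore unknown. All 7 markers of the cell line were found (VIM lay between 9.62 and 9.81). Their summed level was 2253 to 2383 CPM in scramble, 2125 to 2223 in CDH2 shRNA and 2148 to 2252 in Cx43 shRNA. With each knockdown 2 were higher and 5 lower, and 0 passed in limma. An unadjusted limma p under 0.05 was found for 3 with CDH2 shRNA (37.5% of all genes) and 0 with Cx43 shRNA (21.6%). Of 4 markers that are low in this line, ESR1, PGR and CDH1 are not among the genes. EPCAM lay between 2.21 and 2.75. EPCAM fell by 0.37 with CDH2 shRNA and passed in limma, beside 14.3% of all genes. With Cx43 shRNA it differed by 0.11 and did not pass. Of 9 stromal markers 4 were found: NT5E (7.51 to 7.82), ENG (5.94 to 6.38), PDGFRB (4.70 to 5.73) and COL1A1 (2.50 to 4.33). NT5E, the highest, is also in the list of YAP/TAZ targets below. With Cx43 shRNA 1 was higher and 3 lower (median -0.51), and 3 had an unadjusted limma p under 0.05, beside 21.6% of all genes. With CDH2 shRNA 1 was called lower, beside 14.3% of all genes called in either direction. Their summed level was 317 to 355 CPM in scramble, 304 to 337 in CDH2 shRNA and 301 to 305 in Cx43 shRNA. COL1A2, COL3A1, LUM, DCN and THY1 are not among the genes. Of 8 blood and endothelial markers 2 were found, with 21.0 to 21.8 CPM, 20.3 to 24.2 CPM and 16.0 to 18.7 CPM in the same order, and the defining markers PTPRC, CD3E, CD14, CDH5 and VWF are not among the genes. Their part in the results was not tested. Shares of coding transcripts of the mitochondrial genome were taken over the summed CPM of the genes in the files. That sum was 684411 to 727083 CPM per library. The shares were 0.594% to 1.01% in scramble, 1.16% to 2.03% in CDH2 shRNA and 1.25% to 2.36% in Cx43 shRNA. The part of these transcripts was not tested either. In bulk RNA, fewer cells of a type and less RNA per cell cannot be told apart.

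The deposited deviations of the replicates were tied to each other. Scramble 1 lay nearly on the mean of its group in every gene: the SD of its deviations over genes was 0.00644, against 0.139 for scramble 2 and 0.138 for scramble 3. The deviations within every replicate number summed to at most 1e-04. Replicate number 3 holds only scramble 3 and CDH2 shRNA 3, so this sum alone makes their deviations mirror each other exactly (r = -1 across genes). The cause of the small sums and of the position of scramble 1 was not tested. The deviations of all 8 libraries vary in only 2 directions, while the fit counts 3 residual degrees of freedom. Results are therefore also given with 2, and without the libraries numbered 3.

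Per kb of transcript, the targets were the most abundant of the 10 genes in scramble CSCs. CYR61, a secreted matrix protein, had 298 ± 21.0 CPM per kb (SD, n = 3), above 98.9% of genes, and CTGF, a related secreted protein, 85.2 ± 9.85. AMOTL2 had 49.7 ± 1.53, YAP1 19.2 ± 2.29, TEAD1 14.7 ± 2.30 and WWTR1 11.4 ± 1.01 CPM per kb. The kinases and NF2 were lowest, with 8.23 ± 0.908 for LATS2, 7.80 ± 0.400 for STK3, 5.66 ± 0.0245 for NF2 and 4.76 ± 0.666 for LATS1. The ranges of the scramble libraries overlapped for the neighbours YAP1 and TEAD1 and for LATS2 and STK3, and the other neighbours in this order did not overlap.

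The first comparison asks how the pathway's transcripts differ when CDH2 is knocked down. All 10 genes had a higher mean in CDH2 shRNA than in scramble CSCs, where 51.0% of all genes did, and their median log2 fold change was 0.27 against 0.01 over all genes. By limma with Benjamini-Hochberg adjustment over all genes, NF2 and TEAD1 rose, which is 2 of 10 genes (20%) beside 14.3% of all genes called in either direction and 7.29% called higher. Neither reached the 1.66-fold change that the methods add for this comparison. Of all genes, 2.06% had both an adjusted p under 0.05 and that fold change. An unadjusted p under 0.05 was found for 5 of the 10 genes (NF2, LATS1, LATS2, AMOTL2 and TEAD1) and for 37.5% of all genes. The CDH2 shRNA libraries all lay above the scramble libraries for 6 of the 10 genes and for 27.1% of all genes.

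**Figure D1:**
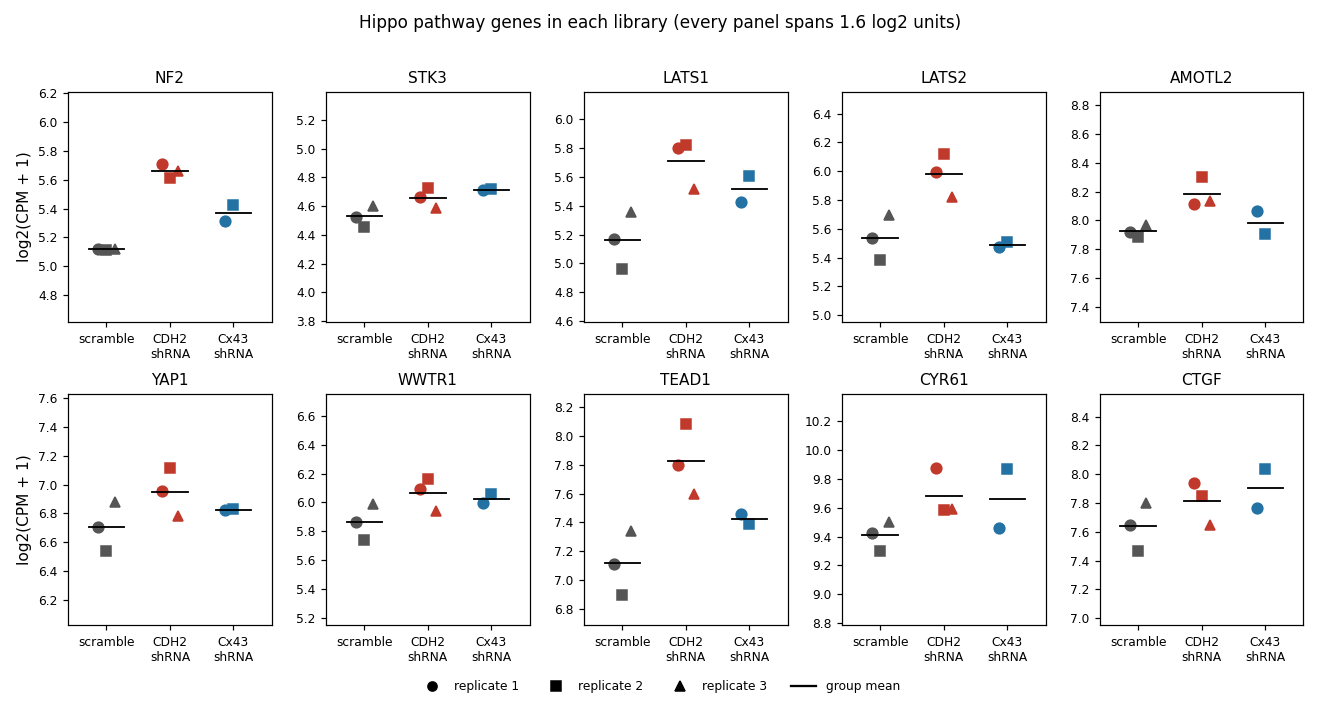
Level of each Hippo gene in every library, as log2(CPM + 1), by shRNA group on the x axis. Symbols give the replicate number, lines the group means, and every panel spans the same range of log2 units. NF2 shows the tightest scramble values (SD 0.0061) with both knockdowns above them.

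NF2 (chr22:29603556-29698598, plus strand, hg38) had the clearest separation of the regulators. Its level was 5.12, 5.11 and 5.12 in scramble, 5.71, 5.61 and 5.66 in CDH2 shRNA, and 5.32 and 5.43 in Cx43 shRNA. The 3 groups did not overlap, with scramble lowest and CDH2 shRNA highest. The rise with CDH2 shRNA was 0.54 ± 0.078 on the log2 scale (SE; 1.46-fold; limma adjusted p = 0.0215). NF2 was higher in CDH2 shRNA in each of the 3 replicate numbers, by 0.59, 0.50 and 0.54.

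Of the kinases, LATS1 was measured at 5.17, 4.96 and 5.36 in scramble, 5.80, 5.82 and 5.52 in CDH2 shRNA, and 5.42 and 5.61 in Cx43 shRNA. Every knockdown library lay above every scramble library. The difference with CDH2 shRNA was 0.55 ± 0.15 and missed the threshold (limma adjusted p = 0.0605).

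LATS2 was at 5.54, 5.38 and 5.69 in scramble, 5.997, 6.12 and 5.82 in CDH2 shRNA, and 5.47 and 5.51 in Cx43 shRNA. The CDH2 shRNA libraries lay above all others, while the Cx43 shRNA libraries lay within the scramble range. The difference with CDH2 shRNA was 0.44 ± 0.12 (limma adjusted p = 0.0652).

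STK3, the kinase upstream of LATS1 and LATS2, was at 4.53, 4.46 and 4.60 in scramble, 4.66, 4.73 and 4.59 in CDH2 shRNA, and 4.71 and 4.72 in Cx43 shRNA. CDH2 shRNA 3 lay within the scramble range, so these groups overlapped. The difference with CDH2 shRNA was 0.13 ± 0.085 (limma adjusted p = 0.301).

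The scaffold AMOTL2 was at 7.92, 7.88 and 7.97 in scramble, 8.11, 8.30 and 8.14 in CDH2 shRNA, and 8.06 and 7.91 in Cx43 shRNA. The CDH2 shRNA libraries lay above all others and 1 Cx43 shRNA library lay among the scramble values. The difference with CDH2 shRNA was 0.26 ± 0.10 (limma adjusted p = 0.110).

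TEAD1 (chr11:12674421-12944737, plus strand) showed the widest shift of the 10 genes. It was at 7.11, 6.89 and 7.34 in scramble, 7.80, 8.08 and 7.60 in CDH2 shRNA, and 7.46 and 7.39 in Cx43 shRNA. The groups did not overlap, with CDH2 shRNA highest and scramble lowest. The rise with CDH2 shRNA was 0.71 ± 0.17 (1.64-fold; limma adjusted p = 0.0491), which is just within the threshold. By replicate number, TEAD1 was higher by 0.69, 1.19 and 0.26.

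The co-activators that TEAD1 binds differed less. YAP1 was at 6.70, 6.54 and 6.88 in scramble, 6.96, 7.12 and 6.78 in CDH2 shRNA, and 6.82 and 6.83 in Cx43 shRNA. WWTR1 was at 5.86, 5.74 and 5.989 in scramble, 6.10, 6.16 and 5.94 in CDH2 shRNA, and 5.996 and 6.06 in Cx43 shRNA. For both, CDH2 shRNA 3 lay within the scramble range. The differences with CDH2 shRNA were 0.25 ± 0.13 for YAP1 (limma adjusted p = 0.231) and 0.20 ± 0.11 for WWTR1 (limma adjusted p = 0.219).

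The targets did not pass the test in CDH2 shRNA CSCs. CYR61 (chr1:85580761-85584589, plus strand) was at 9.42, 9.30 and 9.50 in scramble, 9.87, 9.58 and 9.59 in CDH2 shRNA, and 9.46 and 9.87 in Cx43 shRNA. The CDH2 shRNA libraries lay above the scramble libraries, and 1 Cx43 shRNA library was within the scramble range. The difference with CDH2 shRNA was 0.27, with a 95% confidence interval from -0.10 to 0.65 (limma adjusted p = 0.239).

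CTGF (chr6:131948176-131951372, minus strand) was at 7.65, 7.47 and 7.80 in scramble, 7.94, 7.85 and 7.65 in CDH2 shRNA, and 7.77 and 8.04 in Cx43 shRNA. The groups overlapped in both knockdowns. The difference with CDH2 shRNA was 0.17, with an interval from -0.18 to 0.53 (limma adjusted p = 0.410), so a rise of the size seen for LATS2 (0.44) lies within it.

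The replicate numbers differed in how far the 10 genes were shifted. In replicates 1 and 2, all 10 genes were higher in CDH2 shRNA than in the scramble library of the same number, with medians of 0.37 and 0.46. In replicate 3 the median was 0.11, with 6 genes higher and 4 lower (STK3, YAP1, WWTR1 and CTGF, the last by -0.15). Without scramble 3 or without CDH2 shRNA 3, which give the same fit, 6 of the 10 genes passed the test (NF2, LATS1, LATS2, YAP1, WWTR1 and TEAD1), and 5309 genes in all did. Without scramble 1, without CDH2 shRNA 1 or 2, or without either Cx43 shRNA library, 0 of the 10 genes passed in limma, and of all 12939 genes 10 passed without scramble 1 and 0 without each of the others. With 2 residual degrees of freedom 0 of the 10 passed, and 296 of all genes did. In the fit of all libraries 5 of the 10 had an unadjusted p under 0.05. The calls of NF2 and TEAD1 thus rest on the set of libraries used, and that of TEAD1 also on the normalization and the pseudocount. All 10 genes stayed higher in CDH2 shRNA under every alternative run.

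**Figure D2:**
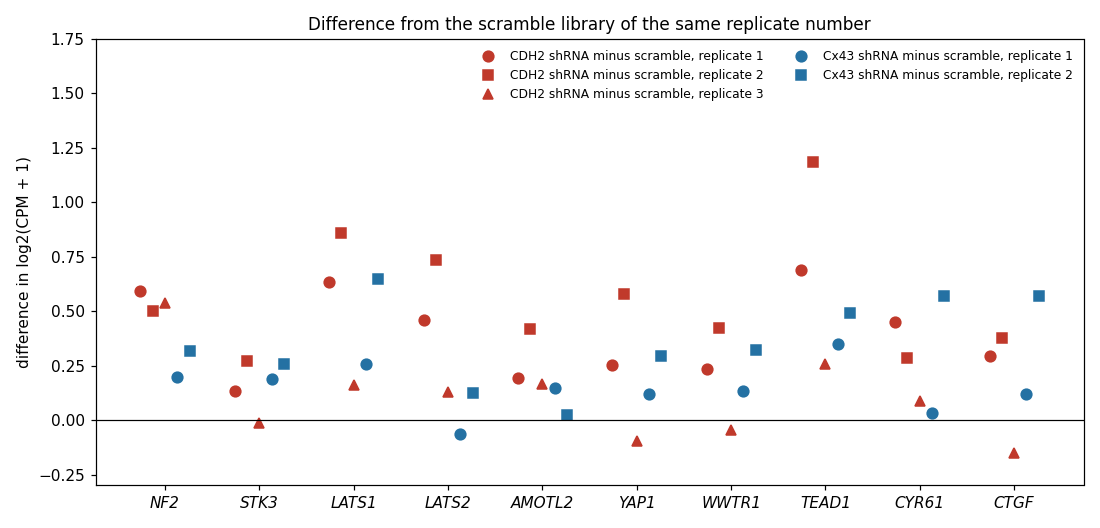
Difference in log2(CPM + 1) of each gene between a knockdown library and the scramble library of the same replicate number. Circles, squares and triangles are replicates 1, 2 and 3. TEAD1 in replicate 2 of CDH2 shRNA is highest at 1.19, and among the CDH2 shRNA pairs the triangle is lowest for every gene but NF2.

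The second comparison asks the same of Cx43. Of the 10 genes, 9 had a higher mean in Cx43 shRNA than in scramble CSCs, where 57.6% of all genes did, and their median log2 fold change was 0.22 against 0.04 over all genes. By limma, 0 of the 10 passed, beside 1.21% of all genes, and only NF2 had an unadjusted p under 0.05, beside 21.6% of all genes. NF2 differed by 0.26 (limma adjusted p = 0.192). The Cx43 shRNA libraries lay above the scramble libraries for NF2, STK3, LATS1, WWTR1 and TEAD1, which is 5 of the 10 genes beside 31.4% of all genes.

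The targets of the Cx43 shRNA group rest on 1 library. CYR61 differed by 0.25 (limma adjusted p = 0.458) and CTGF by 0.26 (limma adjusted p = 0.410), and against the scramble library of the same number both were 0.57 higher in replicate 2, but 0.03 and 0.12 higher in replicate 1. Without Cx43 shRNA 2 the CYR61 difference was -0.05. LATS2 differed by -0.05 (limma adjusted p = 0.876) and AMOTL2 by 0.06 (limma adjusted p = 0.785). The other differences were 0.35 for LATS1, 0.31 for TEAD1, 0.19 for STK3, 0.16 for WWTR1 and 0.12 for YAP1, with limma adjusted p between 0.304 and 0.695.

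The knockdowns were then set against each other. In limma 0 of the 10 genes passed, as did 0 of all genes (0%), while 2 of the 10 had an unadjusted p under 0.05, beside 20.0% of all genes. These were LATS2, 0.49 higher in CDH2 shRNA (95% confidence interval 0.13 to 0.85, limma adjusted p = 0.174), and NF2, 0.29 higher (0.06 to 0.52, limma adjusted p = 0.185). All CDH2 shRNA libraries lay above both Cx43 shRNA libraries for NF2, LATS2, AMOTL2 and TEAD1, which is 4 of the 10 genes beside 21.8% of all genes. The difference between the knockdowns also moved with transcript length, which is taken up below. For CYR61 the difference was 0.02 with an interval from -0.42 to 0.46, which leaves room for a change in either direction.

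**Figure D3:**
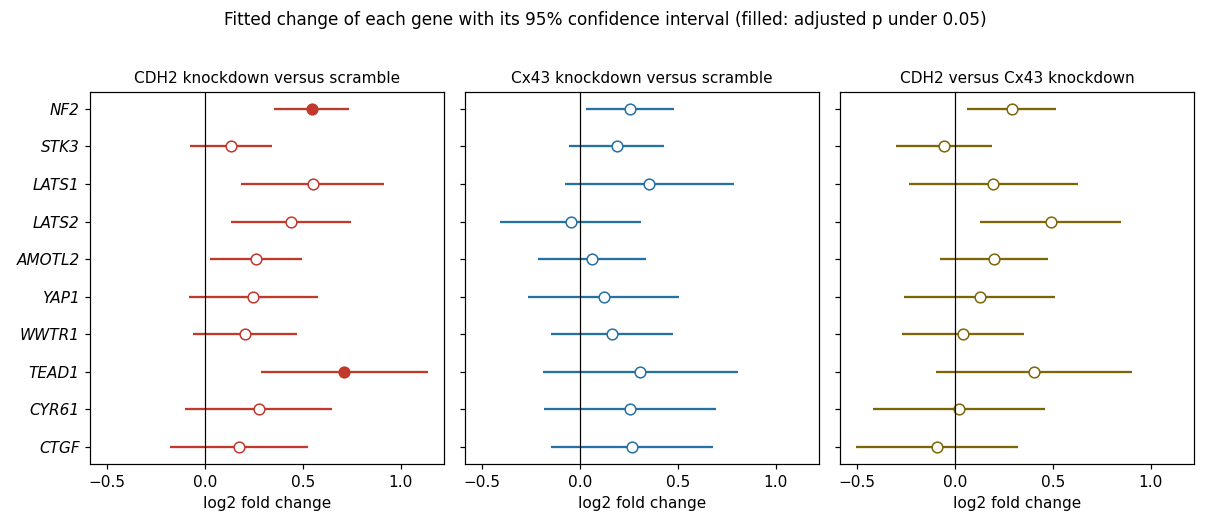
Fitted log2 fold change (x axis) of each gene with its 95% confidence interval in the 3 comparisons. Filled points passed an adjusted p of 0.05, which are NF2 (0.54) and TEAD1 (0.71) with CDH2 shRNA.

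By role, the means of the log2 fold changes with CDH2 shRNA were 0.41 for the regulators NF2, STK3 and LATS1, 0.35 for LATS2 and AMOTL2, 0.39 for YAP1, WWTR1 and TEAD1, and 0.22 for CYR61 and CTGF. With Cx43 shRNA they were 0.27, 0.01, 0.20 and 0.26 in the same order. The mean level of the targets minus that of the regulators was 3.59 ± 0.04 (SD, n = 3) in scramble, 3.40 ± 0.10 (n = 3) in CDH2 shRNA and 3.58 ± 0.17 (n = 2) in Cx43 shRNA. Its values were 3.60, 3.54 and 3.63 in scramble, 3.52, 3.33 and 3.36 in CDH2 shRNA, and 3.46 and 3.70 in Cx43 shRNA, so the CDH2 shRNA libraries lay below the scramble libraries and the Cx43 shRNA libraries on both sides. These are descriptions with no test, since the genes were grouped with results known. How often other sets of genes separate in this way was not counted. The levels are also not corrected for transcript length and GC content, which is taken up below. After that correction the differences with CDH2 shRNA were 0.50 for NF2, 0.04 for STK3 and 0.31 for LATS1. The targets CYR61 (0.33) and CTGF (0.23) then lay within the range of these regulators.

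Over the 8 libraries, YAP1 followed WWTR1 (Pearson r = 0.96) and LATS1 followed WWTR1 (r = 0.96), while AMOTL2 had the lowest r with CYR61 (0.24) and CTGF (0.25). The genes most like CYR61 were RCOR3, FAM86C1, C1orf74, MT-ND6 and VGLL3 (r = 0.990 to 0.997), and those most like CTGF were MT-RNR2, GAS8, ABRAXAS1, CAAP1 and FAM122A (r = 0.994 to 0.997). These points share groups, runs and the few directions of variation. An r over 0.9 was reached by 127 of 12938 genes (0.98%) for CYR61 and 334 (2.58%) for CTGF. That share was not counted for YAP1, WWTR1 or LATS1, so their r values are descriptions only.

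Of a wider list of 79 Hippo gene names, 75 were in the files and FAT4, DCHS1 and CRB3 were not found under these names. The remaining name, PALS1, is the newer symbol of MPP5, which is in the files and is counted under that older symbol. With CDH2 shRNA 7 rose and 1 fell, a share of 10.7% that is below the 14.3% of all genes, while 57 (76%) had a higher mean against 51.0% of all genes, and the median was 0.21 against 0.01. With Cx43 shRNA 0 passed in limma, against 1.21% of all genes, 12 (16%) had an unadjusted p under 0.05, against 21.6%, and the median was 0.08 against 0.04. With Cx43 shRNA 17 passed with only the groups compared, where 21.7% of all genes did, and 13 with no replicate block (24.3% of all genes) or without scramble 3 or CDH2 shRNA 3 (16.5%). The list holds the 10 genes above. Without scramble 3 or CDH2 shRNA 3, 34 rose and 1 fell with CDH2 shRNA, where 41% of all genes passed, and with 2 residual degrees of freedom 0 passed, against 2.29% of all genes.

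Among the 16 core kinases and adaptors, 1 (6.25%) rose with CDH2 shRNA and 0 fell, below the 14.3% of all genes called. It was MOB1B, a LATS co-activator, with 5.14 ± 0.15 in scramble and 5.63 ± 0.13 in CDH2 shRNA (SD, n = 3; limma adjusted p = 0.0493). TAOK1, a kinase that activates STK3, differed by 0.52 (limma adjusted p = 0.0840), and MAP4K4 and MAP4K2 were lowest at -0.19 and -0.11. With Cx43 shRNA the differences ran from -0.41 for TNIK and -0.38 for MAP4K4 to 0.27 for MAP4K2 and 0.37 for MAP4K3, leaving the kinases described above aside.

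Of the 18 upstream scaffolds found, 3 (16.7%) rose and 0 fell with CDH2 shRNA, near the 14.3% of all genes called, with a median of 0.29. Besides NF2 they include WWC2, a KIBRA relative that works with LATS kinases, which rose by 0.63 ± 0.092 (SE; limma adjusted p = 0.0215). The atypical cadherin FAT1 differed by 0.63 (limma adjusted p = 0.0926), and AMOT and SCRIB were lowest at -0.08 and 0.09. With Cx43 shRNA, PTPN14 and AMOT differed by -0.48 and -0.46, and LLGL1 and WWC2 by 0.45 and 0.43 (limma adjusted p from 0.0831 to 0.180).

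Of 15 inhibitors of the kinases 0 passed in limma, with 6 (40%) at an unadjusted p under 0.05 for CDH2 shRNA and 0 for Cx43 shRNA, beside 37.5% and 21.6% of all genes. With CDH2 shRNA the ends were STRN (0.54) and SLMAP (0.51), parts of the phosphatase complex that acts on STK3 and STK4, and FGFR1OP2 (-0.14) and MARK4 (-0.11). With Cx43 shRNA they were STRN and STRN3 (both 0.38) and AJUBA (-0.14) and WTIP (0.01).

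Of 8 effectors, TEAD1 rose and TEAD2 fell with CDH2 shRNA (25%, beside 14.3% of all genes). TEAD2, another member of the TEAD family, had 4.82 ± 0.035 in scramble and 4.45 ± 0.037 in CDH2 shRNA (SD, n = 3), a difference of -0.37 ± 0.074 (SE; limma adjusted p = 0.0345). TEAD3 and TEAD4 differed by -0.18 and 0.09, and the cofactor VGLL3 by 0.55 (limma adjusted p = 0.322). VGLL3 had a low and widely spread level, with 1.15 ± 0.28 in scramble and 1.70 ± 0.45 in CDH2 shRNA (SD, n = 3). In Cx43 shRNA it was 1.68 ± 0.79 (SD, n = 2). With Cx43 shRNA, TEAD2, TEAD3 and VGLL4 differed by -0.05, -0.02 and -0.03, and VGLL3 by 0.53.

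Of 22 YAP/TAZ targets, 2 (9.09%) rose and 0 fell with CDH2 shRNA, below the 14.3% of all genes called. Their median was 0.25, and 11 (50%) had an unadjusted p under 0.05, beside 37.5% of all genes. CRIM1, a membrane protein that binds growth factors, rose by 0.74 ± 0.18 (SE; limma adjusted p = 0.0485), and DOCK5, a Rac exchange factor, by 0.39 ± 0.096 (limma adjusted p = 0.0496). The kinase NUAK2 differed by 0.48, FOXF2 by -0.21 and CCDC80 by -0.31. With Cx43 shRNA the median was 0.05, CRIM1 and AXL were highest besides CYR61 and CTGF, at 0.51 and 0.21, and IGFBP3 and CCDC80 lowest at -0.60 and -0.74 (limma adjusted p from 0.0702 to 0.304).

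**Figure D4:**
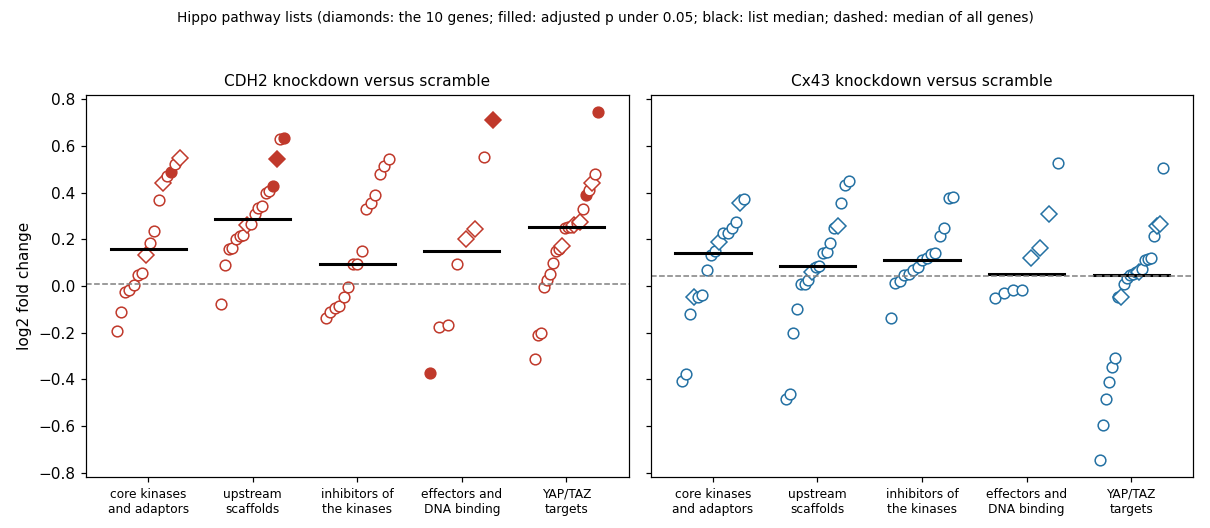
Log2 fold change of the Hippo genes of 5 lists with CDH2 shRNA (left) and Cx43 shRNA (right). Diamonds are the 10 genes, filled symbols passed an adjusted p of 0.05, black bars are list medians and the dashed line is the median of all genes. The upstream scaffolds and the targets have medians of 0.29 and 0.25 with CDH2 shRNA.

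Transcript length moved with the CDH2 shRNA result. Across 12248 genes with a length, the log2 fold change with CDH2 shRNA correlated with the log of transcript length (r = 0.45) and with GC content (r = -0.36), a description across genes, which are not replicates, and the r with length was 0.09 for Cx43 shRNA. When genes were cut into 5 bins of equal size by length, from the shortest to the longest bin the median log2 fold change with CDH2 shRNA went from -0.22 to 0.22. TEAD1, LATS1 and NF2 are in the longest bin, with transcripts of 9417, 7362 and 5950 bases. Genes of the same length bin and GC bin had medians of 0.26, 0.27 and 0.17. For YAP1 and WWTR1 (0.25 and 0.20) that median was 0.19, and for STK3 (0.13) it was 0.10, so these 3 lay within 0.1 of genes built like them. For the shorter CYR61 and CTGF it was -0.05, below their own 0.27 and 0.17. For CDH2 shRNA against Cx43 shRNA the r with length was 0.44. The bin medians of that comparison went from -0.20 in the shortest to 0.15 in the longest bin. Of the genes whose CDH2 shRNA libraries all lay above both Cx43 shRNA libraries, NF2 and TEAD1 are in the longest bin. LATS2 and AMOTL2 are in the next longest.

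After the values were corrected for length and GC content, NF2 rose by 0.50 (limma adjusted p = 0.0250) and TEAD1 by 0.47 (limma adjusted p = 0.0477). LATS1 was then at 0.31, LATS2 at 0.37, AMOTL2 at 0.25, CYR61 at 0.33 and CTGF at 0.23, while YAP1 was at 0.10, WWTR1 at 0.05 and STK3 at 0.04. In this fit 1598 of the 12248 genes with a length (13%) passed with CDH2 shRNA. In the wider list 5 rose and 0 fell, with a median of 0.13, and MOB1B, DOCK5 and TEAD2 no longer passed (limma adjusted p from 0.0803 to 0.223). With Cx43 shRNA, WWC2 then rose by 0.38 (limma adjusted p = 0.0466), where 4.2% of all genes passed.

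**Figure D5:**
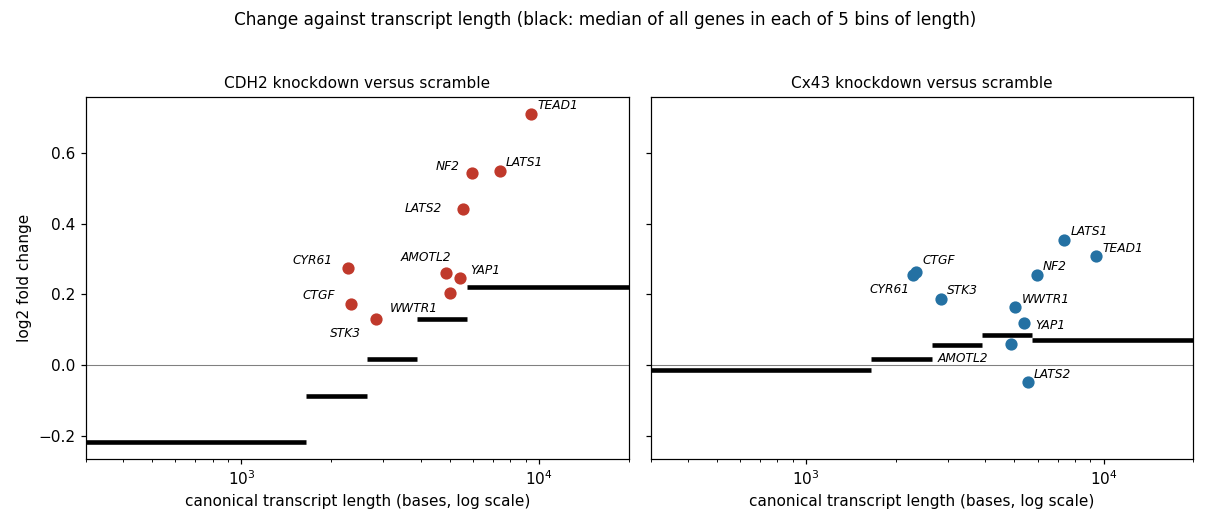
Log2 fold change of the 10 genes (points) against the length of the canonical transcript in bases on a log scale, with CDH2 shRNA (left) and Cx43 shRNA (right). Black bars are the medians of all genes in each of 5 bins of length, which go from -0.22 to 0.22 with CDH2 shRNA, all 10 points lie above 0 there, and the outermost bins run past the axis.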

How the data were processed

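RNA-Seq values of 8 libraries were used. The authors aligned reads to hg38 (STAR 2.6.1 in the submitters' processing notes), quantified genes in Partek Flow, removed a low-quality sample, removed the effect of sequencing runs and dropped low genes, and deposited log2(CPM + 1) values. The depth is unknown. Here limma 3.58.1 in R 4.3.3 (lmFit and eBayes) was fitted to all 8 libraries and 12939 genes with terms for group and for the labels' replicate number (the block), since the run effect had been removed. Tests are two-sided with Benjamini-Hochberg adjustment over all genes, and a gene passed at an adjusted p under 0.05. The deviations of same-numbered libraries correlated between -1 and 0.951. Lengths, GC and positions are from GENCODE v44 for 12248 genes (94.7%), and CPM per kb is 2 to the power of the value, minus 1, over the canonical transcript length. Members and lists were chosen with earlier results of these data known. Named are all 10 members, list genes that passed, the 2 highest and 2 lowest of each list, and the 5 genes most like CYR61 and CTGF, except that some genes of the lists are counted but not reported here by name. Alternatives were no block, quantile normalization, centring, a filter keeping 75% of genes, a pseudocount of 0.1, a mean-variance trend, only the groups compared, 2 residual degrees of freedom, the fold change of the methods, leaving out each library, and, added after seeing the data, a correction for length and GC content.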

Additional observations from a re-analysis of the deposited data

How the results depend on the processing

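With CDH2 shRNA, 2 of the 10 genes passed. The number was 5 with no replicate block, 1 with quantile normalization, 1 with a pseudocount of 0.1, and 0 with only the groups compared, with 2 residual degrees of freedom or with the fold change of the methods, and it ran from 0 to 6 when each library was left out. Of all genes 1846 passed, against 5607 with no replicate block, 1972 with quantile normalization and 1660 with a pseudocount of 0.1. The count of all genes was 0 with only the groups compared, 296 with 2 residual degrees of freedom and 267 with the fold change. It was 0 to 5309 with a scramble or CDH2 shRNA library left out. With Cx43 shRNA, 0 of the 10 passed, against 1 with no replicate block, 2 with only the groups compared and 0 to 2 with a library left out. Of all genes 156 passed, against 3140 with no replicate block, 4 with the filter, 2807 with only the groups compared, 82 with 2 residual degrees of freedom, 515 with the length and GC correction and 0 to 2133 with a library left out. Between the knockdowns, 0 of the 10 passed, as did 0 of all genes, against 2 of the 10 with no replicate block and 1 with only the groups compared. The share of all genes in those alternative fits is not given here, so these counts are not read as a result about the 10 genes. The cause was not tested.

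With Cx43 shRNA, LATS2 turned to 0.030 with only the groups compared and AMOTL2 to -0.021 with quantile normalization, and between the knockdowns WWTR1 turned to -0.060 with the length and GC correction. With a library left out, differences with Cx43 shRNA ran from -0.20 to 0.030 for LATS2, -0.055 to 0.18 for AMOTL2, -0.049 to 0.21 for YAP1 and -0.054 to 0.56 for CYR61, and between the knockdowns from -0.040 to 0.21 for YAP1, -0.055 to 0.10 for WWTR1, -0.29 to 0.33 for CYR61 and -0.30 to 0.11 for CTGF. Leaving out a Cx43 shRNA library leaves that group with 1 sample, assumed to vary like the others. The adjusted p of NF2 with CDH2 shRNA reached 0.189 and that of TEAD1 0.191, both without scramble 1. With quantile normalization TEAD1 did not pass with CDH2 shRNA (limma adjusted p = 0.0558) and NF2 did (limma adjusted p = 0.0241). The same held with a pseudocount of 0.1 (limma adjusted p = 0.0538 for TEAD1 and 0.0230 for NF2).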
